A study of Mus musculus with 4 samples.

Results

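The 48 genes described here encode the machinery with which the endoplasmic reticulum (ER) imports, folds, glycosylates, inspects and retains secreted proteins. They were taken by symbol, and all 48 were found among the 31053 genes of the deposited matrices. By role, 11 are chaperones and co-chaperones, 7 are thiol oxidoreductases that make and shuffle disulfide bonds, 6 belong to the signalling of the unfolded protein response, 14 serve translocation of new chains into the ER, 5 are subunits of the oligosaccharyltransferase that adds N-linked glycans, 3 act in ER-associated degradation and 2 are receptors that return escaped ER proteins.

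The libraries are single-cell RNA libraries of sorted, living TOM+ cells from mouse duodenal crypts, 2 per genotype. TOM is a red fluorescent reporter switched on by Cre recombinase. The WT mice carried Atoh1CreER-T2 and R26RTom. The APC-KO mice carried R26RTom, both Apc alleles floxed, and a driver written as Atoh1Cre in the sample labels and as the inducible form in the series text. Apc restrains Wnt signalling, and Atoh1, which drives the recombinase, marks the secretory lineage of the gut. The design thus switches on the reporter, and in APC-KO deletes Apc, in cells that use Atoh1. The sort keeps cells that carry the reporter, which does not measure their use of Atoh1 at harvest. Both genotypes received tamoxifen in 2 doses 24 h apart and were harvested 12 h later. Age, sex, animal and sequencing batch of a library are not given in the sources used here. The p-values between genotypes therefore measure the spread between these libraries. Comparisons of lineages or types, and of genotype differences between lineages, set differences between libraries aside. Their p-values measure the scatter left among sums of the same libraries.

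Secreted and membrane proteins enter the ER through the Sec61 channel, where signal peptidase trims them and oligosaccharyltransferase attaches sugars. Hspa5 (BiP) and Hsp90b1 hold unfolded chains, calnexin and calreticulin fold glycoproteins, and the protein disulfide isomerases pair their cysteines. When demand exceeds capacity, Ern1 and Ern2 (IRE1 alpha and beta) splice Xbp1 mRNA, and the resulting factor raises many of these genes, while Atf4 and Ddit3 (CHOP) belong to the branch that acts through translation. Goblet cells, which secrete mucin, and Paneth cells, which secrete defensins and lysozyme, are textbook cells of high ER load, and Ern2 is known from mucus-secreting epithelium.

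A shared promoter element is known for this gene set, the ER stress response element ERSE, with the letters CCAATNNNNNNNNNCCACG. It was searched on both strands, together with ERSE-II (ATTGG, any base, then CCACG) and the XBP1 element UPRE (TGACGTGG), from 250 bases before to 50 bases after the starts listed by RefSeq (GRCm38.p6). The windows below are shown because the genes carrying them include the central chaperones and some members that differed most between cell types. Each is written 5′ to 3′ on the strand of its gene, with the matched letters in capitals; for Creld2 and Kdelr3 the match lies on the opposite strand and appears as its reverse complement.
Hspa5: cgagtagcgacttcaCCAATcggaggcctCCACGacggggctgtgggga
Pdia6: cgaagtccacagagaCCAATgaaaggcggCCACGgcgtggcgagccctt
Dnajc3: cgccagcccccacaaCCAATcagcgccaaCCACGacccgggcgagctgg
Syvn1: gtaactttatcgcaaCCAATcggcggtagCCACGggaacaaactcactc
Creld2: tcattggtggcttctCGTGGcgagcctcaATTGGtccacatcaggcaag
Herpud1: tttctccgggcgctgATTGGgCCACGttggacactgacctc
Txndc5: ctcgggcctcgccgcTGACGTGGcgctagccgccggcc
Kdelr3: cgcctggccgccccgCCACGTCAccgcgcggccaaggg

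The Hspa5 window lies at chr2:34772010-34772058 on the plus strand, the Txndc5 window at chr13:38528030-38528067 on the minus strand and the Kdelr3 window at chr15:79516363-79516400 on the plus strand. Of the 48 genes, 38 had a promoter sequence. ERSE occurred in 8 of these (Calr, Canx, Creld2, Dnajc3, Hsp90b1, Hspa5, Pdia6 and Syvn1), or 21.1% of genes, against 0.137% of the 27025 genes in the promoter table and 0.119% of its 32851 windows of the same length. ERSE-II occurred in Dnajb11 and Herpud1, against 0.0444% of all genes (0.0365% of windows), and UPRE in Kdelr3, Txndc11 and Txndc5, against 0.714% of all genes (0.676% of windows). A match describes these letters and is neither a site nor a cause. Ern2, Hyou1, Kdelr2, Manf, Ostc, Sec11c, Sec61a1, Spcs3, Ssr2 and Tram1 were not in the promoter table.

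The libraries held between 54230249 and 61032126 UMIs, where a UMI counts 1 captured RNA molecule. The authors' tables kept 4814 and 3821 cells of WT replicates 1 and 2 and 356 and 6243 cells of APC-KO replicates 1 and 2. APC-KO replicate 1 stands apart by its few cells and by a median of 8370 UMIs per cell, against 3973 to 5354 in the others. Between 1 and 8 barcodes were shared by any 2 libraries. Apc, counted at its 3′ end over all kept cells, stood at 87.2 and 77.9 CPM, its counts scaled to a common total, in the WT libraries and at 88.1 and 88.1 in APC-KO, which does not bear on the floxed exons. Goblet, Paneth, endocrine, tuft and stem markers each summed highest in the lineage of their name in all 4 libraries, although within tuft cells the goblet markers exceeded the tuft markers in WT replicate 1 (4502 against 2831 CPM), WT replicate 2 (3143 against 3055 CPM) and APC-KO replicate 2 (25654 against 2249 CPM). Paneth markers (3775 CPM) exceeded them as well in the last of these. Within the progenitor lineage, goblet markers (8074 to 23141 CPM) exceeded the stem markers (1622 to 2073 CPM) in all 4 libraries. Paneth markers exceeded the stem markers there in every library but APC-KO replicate 1. The 6 markers of plasma and B cells, which also carry a large ER, summed to at most 8.11 CPM in any lineage of a library.

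The deposited tables name 12 cell types. The names come from the expression of the same cells, so p-values between types or lineages are not independent of how the cells were grouped. For tests, GOBLET and GOBLET-PRE were summed as the goblet lineage, PANETH and PANETH-PRE as the Paneth lineage, EC, NON-EC and EEC-PRE as the endocrine lineage, TUFT as tuft, and ISC, SEC-PRO and ENTERO-PRO as progenitor, and GP was kept apart. Sums of fewer than 20 cells were not tested, which removed GP and TUFT of APC-KO replicate 1 from the lineages and all but its EC, GOBLET and GOBLET-PRE cells from the types.

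Together the 48 genes gave 0.71% to 2.89% of all UMIs of a type in WT. The share was 0.99% and 0.91% in ISC, then 2.19% and 2.37% in SEC-PRO and 2.77% and 2.89% in GP. It stood at 2.55% and 2.81% in GOBLET-PRE and at 2.38% and 2.43% in PANETH-PRE. The types named as mature had less, with 1.15% and 1.11% in GOBLET and 0.71% and 0.78% in PANETH. Endocrine types ranged from 0.89% to 1.45%, and TUFT had 0.82% and 0.89%. These shares are of everything captured, and defensins and Lyz1 took 55.8% and 50.7% of UMIs in WT PANETH cells. With the 50 most abundant genes of each sum set aside, the share was 3.09% and 3.10% in PANETH and 3.87% and 3.69% in PANETH-PRE. It was 2.77% and 2.84% in GOBLET, 3.57% and 3.77% in GOBLET-PRE, 3.83% and 3.55% in GP and 1.32% and 1.23% in ISC, so the mature types stayed below their precursors. In GOBLET-PRE of both WT libraries and in GP of WT replicate 2, 1 of the 48 genes was itself among those set aside. This lowered their shares.

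**Figure D1:**
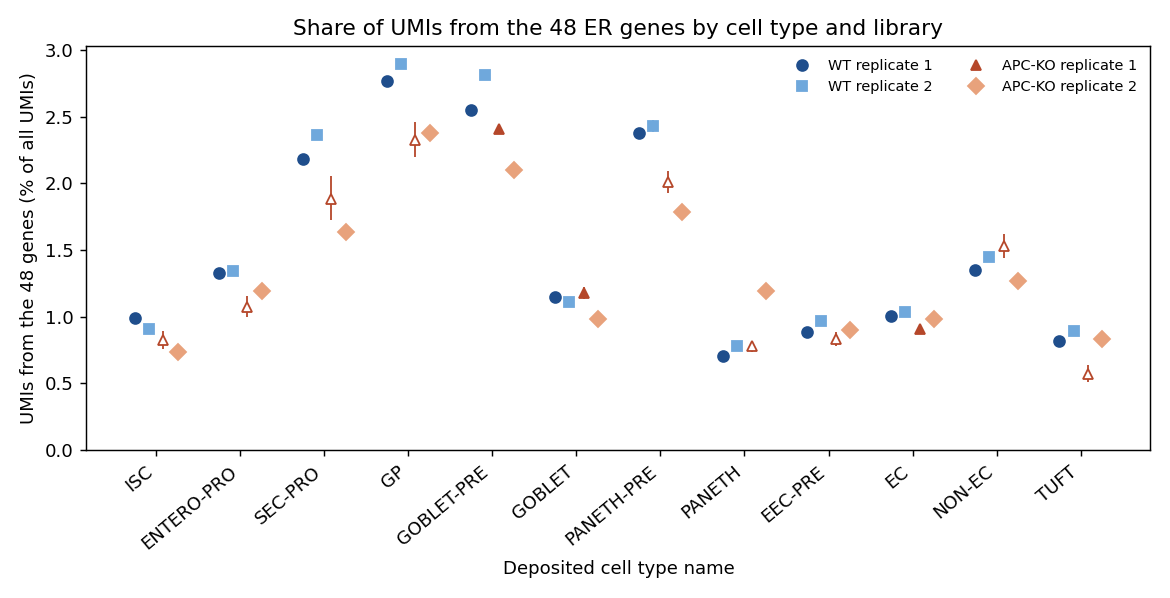
Percentage of all UMIs that came from the 48 ER genes (vertical axis) in each deposited cell type (horizontal axis), 1 point per library with its 95% Wilson interval, which covers counting error only. Open points are sums of fewer than 20 cells; SEC-PRO, GP, GOBLET-PRE and PANETH-PRE lie above ISC in each library.

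To compare genes across sums of such different makeup, counts were scaled with TMM factors, which set the typical gene to no change, and levels below are TMM-scaled CPM. On this scale the WT mean was highest in GOBLET-PRE for 24 of the 48 genes, in PANETH for 12, in GP for 6, in PANETH-PRE for 4 and in GOBLET for 2. The type was highest in both WT libraries for only 15, 8, 3, 2 and 1 genes in the same order. On unscaled CPM the WT mean was highest in GP for 26, GOBLET-PRE for 12, PANETH-PRE for 7 and PANETH for 0. PANETH was then the lowest type for 19, so the place of mature Paneth cells in this order depends on the scale. The lowest type on the TMM scale was TUFT for 20 genes, EEC-PRE for 14, EC for 8 and ISC for 4.

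**Figure D2:**
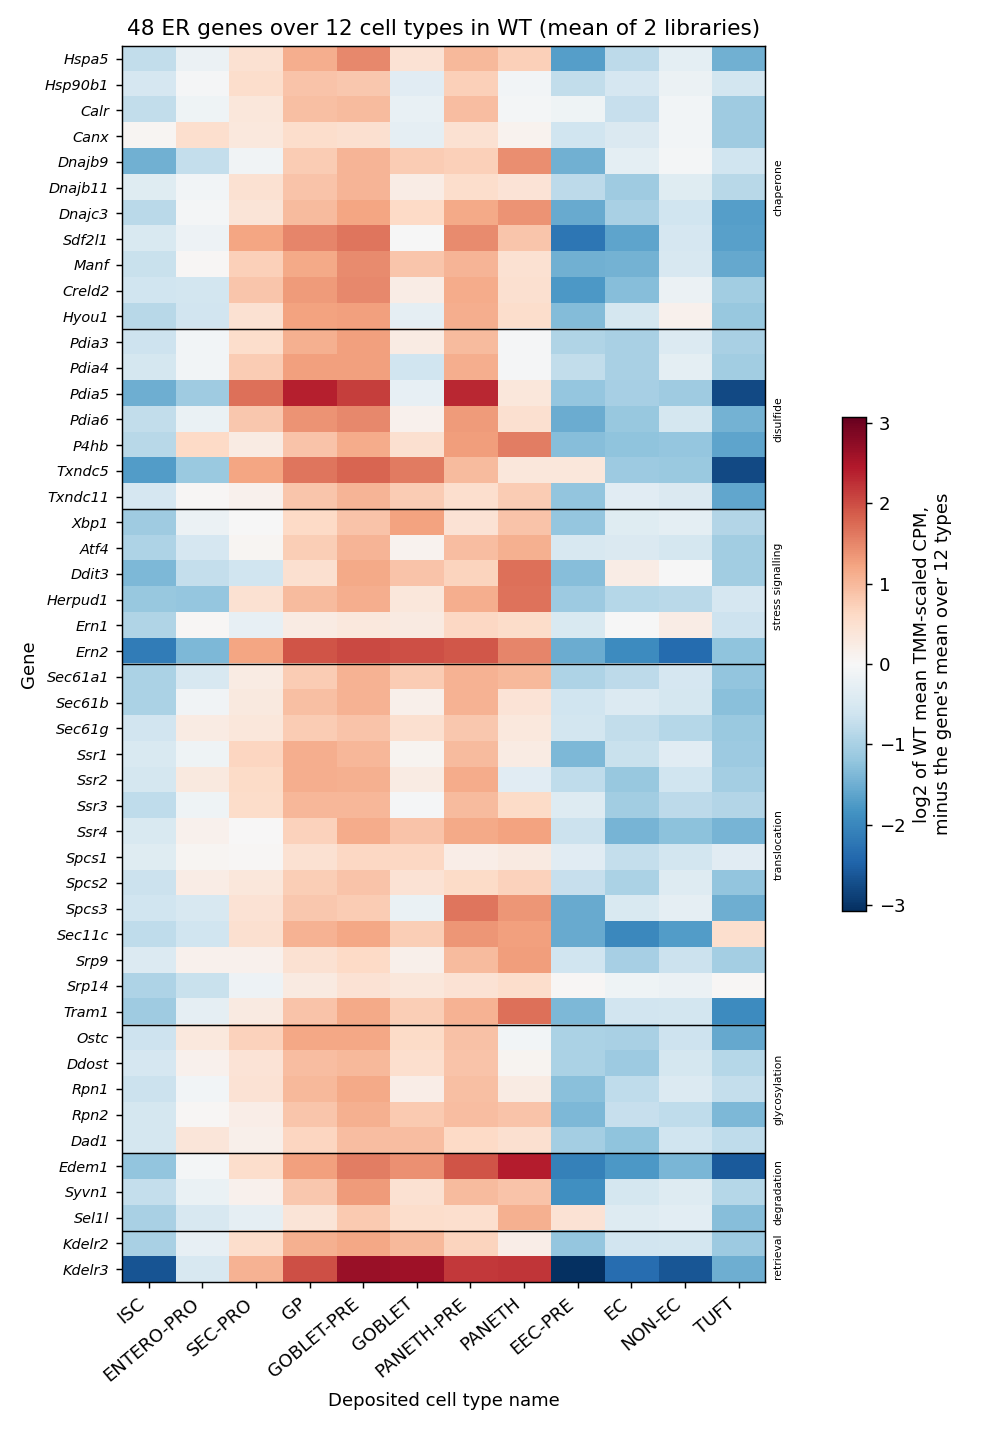
Each row is a gene, grouped by role, and each column a cell type. Colour gives the log2 of the mean TMM-scaled CPM of the 2 WT libraries minus the gene's mean over the 12 types, so red marks types above the gene's own mean; the columns GP to PANETH are mostly red and the endocrine and TUFT columns mostly blue.

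The machinery was already high in SEC-PRO cells. Against ISC, 46 of the 48 genes rose and 0 fell (edgeR quasi-likelihood test, adjusted p under 0.05), while 15.7% of all 11411 genes tested rose and 20.7% fell. The median log2 difference was 1.12 for the 48 genes and -0.07 for all genes. Canx (log2 difference 0.23, adjusted p = 0.14) and Ddit3 (0.44, adjusted p = 0.079) did not pass. This comparison and the next were added after the levels by type had been seen, over the 3 libraries with enough cells.

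Ern2 rose most. Its level was 19.2 and 7.83 in WT ISC and 10.3 in ISC of APC-KO replicate 2, and 135, 142 and 142 in SEC-PRO of the same libraries. The groups do not overlap, and the log2 difference was 3.47 ± 0.18 (SE; adjusted p = 3.6e-20). Its paralogue Ern1, expressed in most tissues, stood at 10.9, 6.02 and 9.41 in ISC and 13.8, 13.3 and 15.4 in SEC-PRO, a log2 difference of 0.62 ± 0.20 (adjusted p = 0.014).

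Kdelr3, a receptor that retrieves ER proteins from the Golgi, stood at 3.90, 0.602 and 1.23 in ISC and 30.9, 28.3 and 15.6 in SEC-PRO (log2 difference 3.43 ± 0.31). Its ISC levels came from 15, 1 and 8 UMIs. Pdia5, an oxidoreductase, stood at 26.0, 13.3 and 16.3 in ISC and 177, 187 and 162 in SEC-PRO (3.21 ± 0.18). Txndc5, another member of that family, stood at 125, 125 and 56.0 in ISC and 858, 1032 and 464 in SEC-PRO (2.96 ± 0.17). All 3 genes were higher in SEC-PRO in each library. The general chaperone Hspa5 rose less, from 767, 740 and 530 to 1693, 1814 and 1340 (log2 difference 1.25 ± 0.15, adjusted p = 2.1e-09).

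From SEC-PRO to GP, 46 of the 48 rose and 0 fell, against 17.5% and 12% of all genes, with a median log2 difference of 0.59 against 0.07. Ddit3 rose most (1.18 ± 0.17), from 14.9, 20.8 and 15.8 to 37.2, 39.5 and 39.7. Dnajb9, the BiP co-chaperone ERdj4, followed (0.99 ± 0.12), from 48, 64.9 and 48.9 to 97.9, 111 and 111. Canx and Ern1 did not pass. With WT replicate 1 left out, 24 passed.

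Among 124 further genes of the same pathways, 123 were found. Of the 118 tested, 90 rose and 6 fell from ISC to SEC-PRO, with the largest rises in Agr2, an isomerase required for mucin folding (3.86 ± 0.41), and Creb3l1, an ER-anchored transcription factor (3.72 ± 0.19). From SEC-PRO to GP, 83 rose and 1 fell.

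The goblet lineage stood above the progenitor and endocrine lineages across nearly the whole set. In WT, 47 of 48 genes were higher in goblet than in progenitor cells and 0 lower (28.2% and 29.9% of all 12671 genes tested), with a median log2 difference of 1.10 against -0.04. Canx did not pass (0.17 ± 0.09, adjusted p = 0.13). Kdelr3 stood at 88.1 and 90.3 in goblet and 16.6 and 17.4 in progenitor cells of WT (2.39 ± 0.14). Ddit3 stood at 55.2 and 65.1 against 14.6 and 16.2 (1.97 ± 0.13), and Ern2 at 250.5 and 235 against 71.5 and 86.8 (1.63 ± 0.12). The 2 libraries of the lineages did not overlap for any of the 3 genes.

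Against the endocrine lineage, 47 of 48 were higher in goblet cells and 0 lower (29.7% and 33.6% of all genes), with a median log2 difference of 1.88 against -0.09. Ern1 was the exception (0.41 ± 0.19, adjusted p = 0.065). Kdelr3 gave only 10 and 7 UMIs in WT endocrine cells, or 2.36 and 2.21 on the scaled measure, a log2 difference of 5.26 ± 0.23. Ern2 stood at 16.7 and 13.0 in endocrine cells (4.01 ± 0.16). Edem1, a lectin that hands misfolded glycoproteins to degradation, stood at 129 and 135 in goblet and 13.4 and 13.3 in endocrine cells (3.29 ± 0.15). Of the further pathway genes, 102 of 121 were higher and 9 lower in goblet cells, among them Agr2 (5.30 ± 0.34).

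The same order of lineages recurred across the roles. Values are given for WT replicates 1 and 2 and then APC-KO replicates 1 and 2. Among chaperones, Hsp90b1 (GRP94) stood at 1853, 1871, 1869 and 1289 in goblet cells and at 806, 774, 580 and 638 in endocrine cells. Creld2, a chaperone-like protein induced by ER stress, stood at 175, 203, 162 and 146 in goblet cells and at 36.3, 38.5, 36.7 and 42.8 in endocrine cells. Goblet and endocrine libraries of both genotypes lay apart for both genes.

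Hyou1, a large chaperone that recharges BiP, stood at 166, 168, 151 and 148 in goblet cells against 55.4, 54.0, 52.7 and 70.1 in endocrine cells. Atf4 stood at 295, 352, 369 and 299.9 against 115, 109, 140.5 and 114. Herpud1, which organises the degradation complex in the ER membrane, stood at 275, 317, 274 and 291 against 72.9, 72.0, 103.8 and 86.8. In WT the log2 differences between these lineages were 1.604 ± 0.12, 1.53 ± 0.11 and 2.02 ± 0.13, and no library of one lineage reached the range of the other.

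For import, the channel subunit Sec61b stood at 1406, 1099.7, 1847 and 1123 in goblet cells against 470, 369, 573 and 393 in endocrine cells. The translocon-associated Ssr4 stood at 1262, 1223, 1326 and 1010.4 against 253, 233, 246 and 260. Spcs1, of signal peptidase, stood at 261, 291, 256 and 205 against 106, 123, 87.8 and 102. The WT log2 differences were 1.58 ± 0.11, 2.35 ± 0.12 and 1.27 ± 0.10. These 3 genes were the higher in goblet cells in each of the 4 libraries.

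Within the stress signalling genes, the cell types split in different ways. Ern2 on chromosome 7 (GRCm38 122169893 to 122186207) lay between 135 and 252 in the WT libraries of SEC-PRO, GP, GOBLET-PRE, GOBLET, PANETH-PRE and PANETH, and between 7.83 and 28.8 in those of ISC, ENTERO-PRO, TUFT and the endocrine types. The 2 ranges do not overlap. Ern1 on chromosome 11 (106394650 to 106487852) lay between 6.02 and 31.3 over all 12 types, and its WT mean was highest in PANETH-PRE (25.1) and lowest in ISC (8.47). Xbp1, the target of both, was highest in GOBLET (458 and 470), then PANETH (357 and 373) and GOBLET-PRE (367 and 355), which overlap, and lowest in EEC-PRE (83.8 and 91.3). Spliced and unspliced Xbp1 cannot be told apart by 3′ counts.

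**Figure D3:**
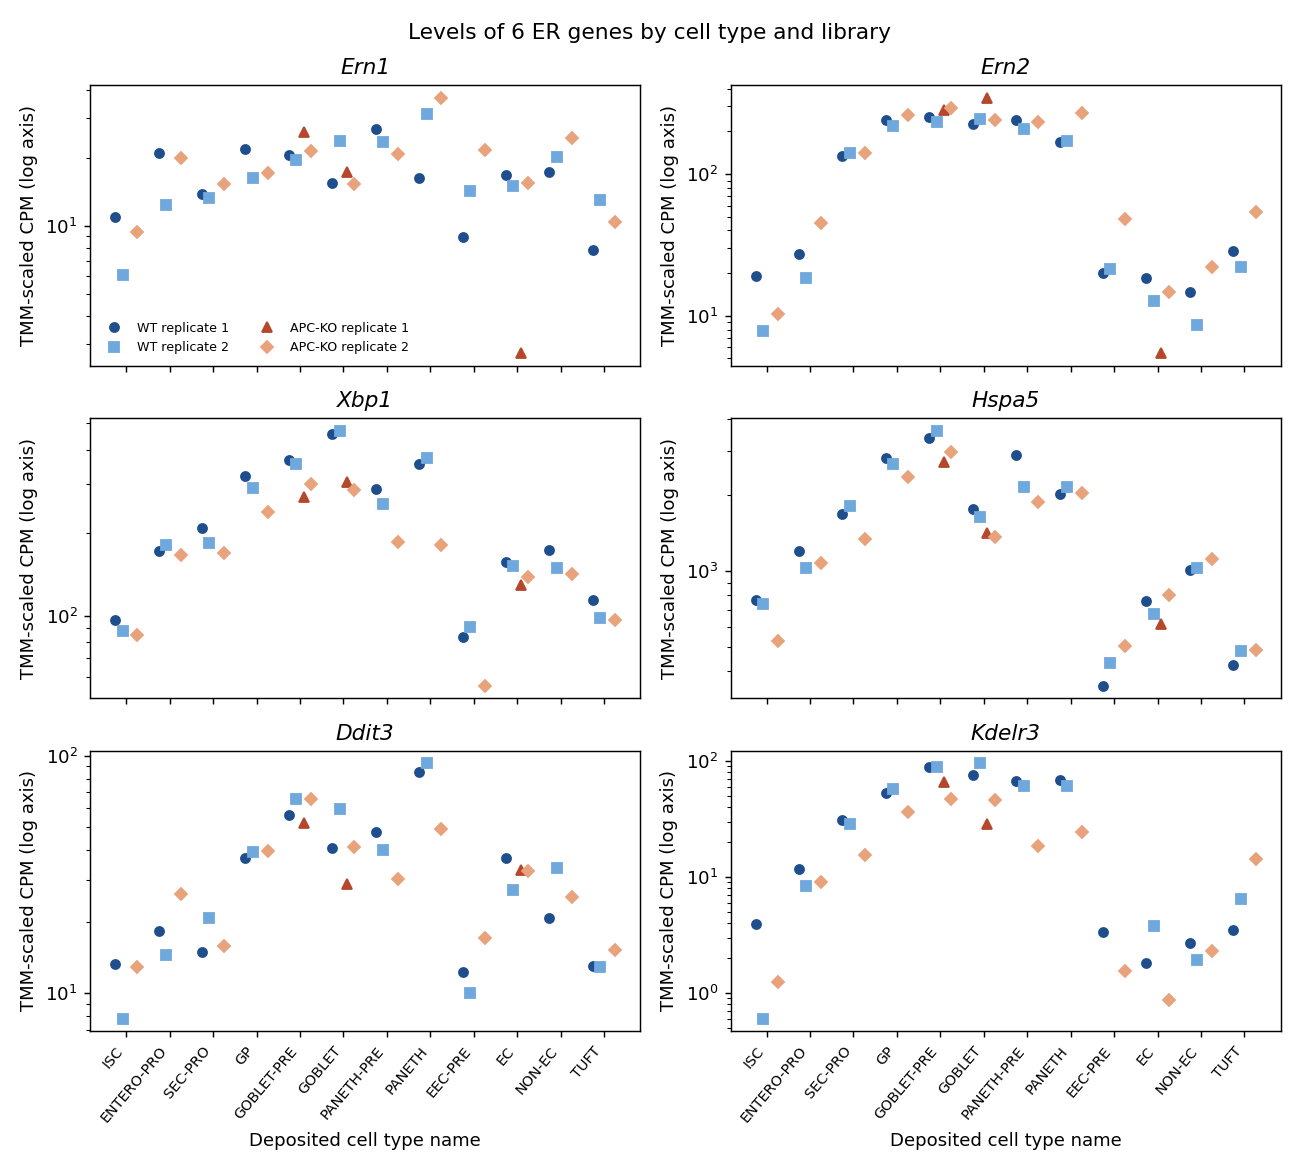
TMM-scaled CPM (log axis) of Ern1, Ern2, Xbp1, Hspa5, Ddit3 and Kdelr3 by cell type, 1 point per library with at least 20 cells; values of 0 (Kdelr3 in EEC-PRE of WT replicate 2 and in EC of APC-KO replicate 1) are not drawn. Ern2 and Kdelr3 separate the goblet and Paneth types from the endocrine types, ISC and TUFT, while Ern1 stays between 2.74 and 36.9.

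Chaperones and oxidoreductases were lower in GOBLET than in GOBLET-PRE cells. Over all 4 libraries 37 of the 48 genes fell and 0 rose, against 18.4% and 12.8% of all genes, with a median log2 difference of -0.68 against -0.15. All 11 chaperones, 12 of 14 translocation genes, 5 of 7 oxidoreductases and 4 of 5 oligosaccharyltransferase subunits fell, but 2 of 6 signalling genes. Pdia5 stood at 240, 247, 244 and 245 in GOBLET-PRE and 44.6, 49.9, 34.6 and 56.5 in GOBLET (log2 difference -2.32 ± 0.21). Pdia4 stood at 282, 309, 263 and 239 in GOBLET-PRE and 81.5, 82.0, 103.8 and 80.9 in GOBLET (-1.72 ± 0.14). Sdf2l1, a partner of BiP, followed (-1.57 ± 0.17). The libraries of GOBLET and GOBLET-PRE did not overlap for Pdia5, Pdia4 or Sdf2l1.

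Hspa5 fell from 3382, 3615, 2706 and 2958 in GOBLET-PRE to 1768, 1646, 1413 and 1369 in GOBLET (log2 difference -1.03 ± 0.13). In contrast to the chaperones, Xbp1 (0.22, adjusted p = 0.16), Ern2 (-0.04, adjusted p = 0.85), Kdelr3 (-0.11, adjusted p = 0.72) and Txndc5 (-0.27, adjusted p = 0.14) did not pass. Of the 8 genes with an ERSE match all 8 fell, as did 20 of the 30 members whose promoter windows held none. In the same split, 7 of 8 and 29 of 30 were higher both in SEC-PRO against ISC and in GP against SEC-PRO. Against WT progenitors, 7 of 8 and 30 of 30 were higher in goblet and 6 of 8 and 28 of 30 in Paneth cells. Lower were 8 of 8 and 23 of 30 in endocrine and 8 of 8 and 26 of 30 in tuft cells. The split itself was not tested. Of 118 further genes, 56 fell and 6 rose.

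The Paneth lineage also stood above the progenitor lineage in WT, for 42 of 48 genes with 0 lower (17.8% and 18.7% of all genes), and the median log2 difference was 0.82 against -0.06. Edem1 stood at 209 and 221 in Paneth and 42.7 and 47.6 in progenitor cells (2.26 ± 0.13), Ddit3 at 67.1 and 75.2 against 14.6 and 16.2 (2.21 ± 0.17) and Kdelr3 at 69.2 and 62.0 against 16.6 and 17.4 (1.94 ± 0.19). The count was 24 with WT replicate 1 left out. The comparisons of goblet, Paneth, endocrine and tuft cells with progenitor cells share the same progenitor sums. Before scaling, the members' share of UMIs was lower in the WT Paneth lineage (1.20% and 1.07%) than in progenitor cells (1.53% and 1.75%), with 42.8% and 43.6% of Paneth UMIs from defensins and Lyz1.

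The Paneth and goblet lineages, as summed, differed in which parts of the machinery were high. In WT, 6 of the 48 genes were higher in the Paneth lineage and 21 lower (13.7% and 14.4% of all genes), with a median log2 difference of -0.30 against 0.01. Lower in Paneth cells were 7 of 11 chaperones, 5 of 7 oxidoreductases, 4 of 5 oligosaccharyltransferase subunits and both retrieval receptors. Txndc5 was furthest below, at 667 and 640 in Paneth and 1251 and 1561 in goblet cells (-1.10 ± 0.13, adjusted p = 2.4e-09). Next were the retrieval receptor Kdelr2 (-0.75 ± 0.11) and the oligosaccharyltransferase subunit Ostc (-0.70 ± 0.12).

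Higher in Paneth cells were Spcs3, a subunit of signal peptidase, at 285 and 226 against 150 and 146 (0.78 ± 0.12), and Edem1, at 209 and 221 against 129 and 135 (0.71 ± 0.12). Srp9, part of the signal recognition particle, stood at 402 and 475 against 264 and 310 (0.61 ± 0.10). P4hb, the major protein disulfide isomerase, stood at 1377 and 1339 against 1017 and 1058 (0.39 ± 0.11), and Herpud1 (0.43) and Tram1 (0.33) completed the list. Paneth and goblet libraries did not overlap for any of these genes with values given.

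This contrast rests on both WT libraries. Without WT replicate 1, 6 genes passed, and without WT replicate 2, 2 did, each time with a single WT library per lineage and the spread taken from the other sums. The mix of mature and precursor cells also differed. In WT replicates 1 and 2, GOBLET-PRE cells were 88.7% and 82.2% of the goblet lineage, and PANETH-PRE cells 53.5% and 32.9% of the Paneth lineage. PANETH-PRE against GOBLET-PRE cells alone gave 2 higher and 6 lower, with Pdia5 turning to 0.23 and no share of all genes given. Goblet markers summed to 42593 and 22277 CPM in the Paneth lineage of WT, and their part in the contrast was not tested. Among 121 further genes, 23 were higher and 22 lower in Paneth cells, with Pdia2, a tissue-restricted disulfide isomerase (4.43 ± 0.43), and Copz2, a coat subunit (3.87 ± 0.20), highest and Agr2 (-1.82 ± 0.29) lowest.

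**Figure D4:**
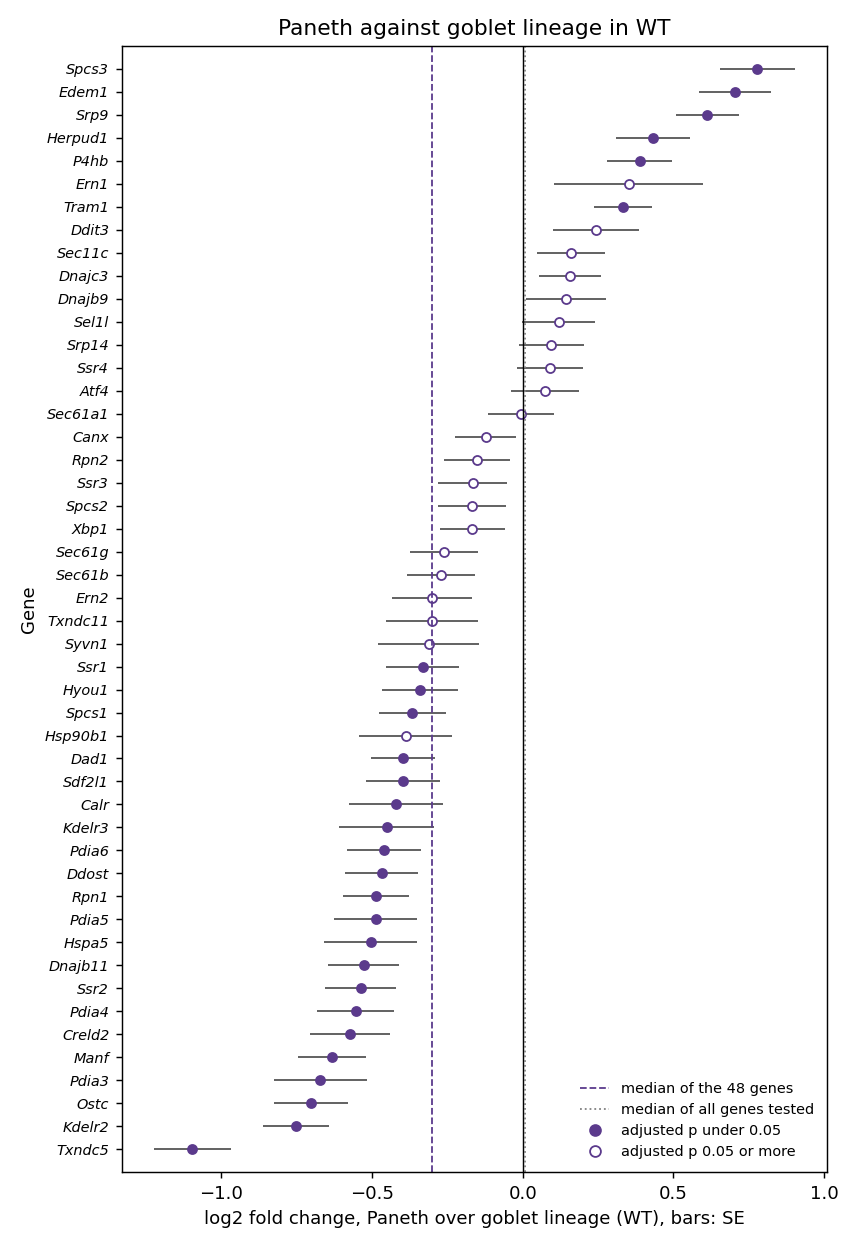
log2 fold change of each of the 48 genes between the Paneth and goblet lineages in WT (horizontal axis, bars show the SE), ordered by value. Filled points passed an adjusted p of 0.05 over all genes; 6 lie to the right, led by Spcs3, and 21 to the left, with Txndc5 farthest.

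Between PANETH-PRE and PANETH cells the set split. In PANETH, 7 genes were higher (Ddit3, Sel1l, Dnajb9, Edem1, Tram1, Herpud1 and P4hb) and 10 lower, among them Pdia5, Ssr2, Pdia4 and Calr. Of all genes 3.89% were higher and 2.97% lower, and the median log2 difference was -0.0048 for the 48 genes and 0.02 for all genes. Ddit3 stood at 47.8, 39.9 and 30.2 in PANETH-PRE and 85.1, 92.7 and 49.2 in PANETH of WT replicates 1 and 2 and APC-KO replicate 2 (1.03 ± 0.22, adjusted p = 0.0012). Dnajb9 stood at 82.2, 120 and 82.9 against 166, 162 and 129 (0.71 ± 0.16), and Sel1l, the adaptor of the Hrd1 ubiquitin ligase, at 126, 96.3 and 103.6 against 166, 168 and 185 (0.75 ± 0.16). Dnajb9 and Sel1l did not overlap between the types, while Ddit3 in PANETH of APC-KO replicate 2 lay close to the highest PANETH-PRE value.

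Pdia5 moved the other way, from 268, 289 and 237 to 83.1, 60.1 and 167 (-1.20 ± 0.19). Hspa5 (-0.14, adjusted p = 0.67), Xbp1 (0.31, adjusted p = 0.23) and Ern2 (-0.09, adjusted p = 0.85) did not pass. Without WT replicate 1 or 2, 5 and 4 of the 48 genes passed in place of 17. Of 118 further genes, 16 were higher in PANETH, led by Nupr1, a stress-induced nuclear protein (3.10 ± 0.35), and 7 lower.

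Endocrine cells stood low. Against the progenitor lineage of WT, 41 of 48 genes were lower and 3 higher (32.2% and 31.1% of all genes), with a median log2 difference of -0.87 against -0.01, the largest falls being Kdelr3 (-2.87 ± 0.30), Ern2 (-2.38 ± 0.18) and Pdia5 (-2.01 ± 0.16). Ddit3 (0.68 ± 0.16), Sel1l (0.34 ± 0.12) and Srp14 (0.27 ± 0.10) were higher. Because SEC-PRO cells made up 44.0% and 56.9% of WT progenitors, this result turns on the reference: against ISC cells alone, 13 genes were higher and 13 lower, and Ern2 differed by 0.03. Shares of all genes are not given for that reference. Leaving out WT replicate 1 or 2 left 29 and 26 genes. Of 121 further genes, 66 were lower and 17 higher, the latter led by Sesn2 (2.70 ± 0.28) and by Atf6, the third sensor of unfolded proteins (2.25 ± 0.14).

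Between EEC-PRE and EC cells, 11 genes were higher in EC and 8 lower (18.5% and 16.9% of all genes), with medians of 0.07 and 0.03. Syvn1, the Hrd1 ubiquitin ligase, rose most (1.48 ± 0.31), followed by Ddit3 (1.35 ± 0.31) and Txndc11 (1.13 ± 0.25). These rises rest on few UMIs in EEC-PRE of WT replicates 1 and 2 and APC-KO replicate 2. There Syvn1 had 5, 5 and 4, Ddit3 11, 7 and 11, and Txndc11 14, 14 and 8. Txndc5 fell from 445, 591 and 298 to 197, 182 and 129 in the libraries with both types (-1.39 ± 0.16). Sel1l (-1.04 ± 0.16) and Ern2 (-0.97 ± 0.36) fell too. Without WT replicate 1 or 2, 12 and 11 of the 48 passed in place of 19.

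In tuft cells, 43 of 48 genes were lower than in WT progenitors and 2 higher (23.5% and 15.6% of all genes), with a median log2 difference of -1.27 against -0.12. Pdia5 stood at 5.83 and 9.99 (-3.78 ± 0.30), Txndc5 at 66.6 and 47.5 (-3.22 ± 0.18) and Edem1 at 9.16 and 5.00 (-2.57 ± 0.31). In WT tuft cells Pdia5 had only 7 and 8 UMIs and Edem1 11 and 4. The exceptions were Sec11c, a catalytic subunit of signal peptidase, at 404 and 441 against 333 and 293 (0.43 ± 0.12), and Srp14, at 133 and 167 against 99.6 and 126 (0.41 ± 0.12). Sec11c in TUFT exceeded its level in the EC, NON-EC and EEC-PRE sums of both WT libraries (62.5 to 124). Against ISC cells alone, 5 genes were higher in tuft cells and 29 lower, with no share of all genes given. Of 121 further genes, 67 were lower than in progenitors and 5 higher.

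Between genotypes, no gene of the set passed in 4 of the 5 comparisons, and 2 fell in progenitors. Over all kept cells 0 of 48 passed (0% of 13345 genes, 0 by DESeq2), with a median log2 difference of -0.20 against 0.01, and 1 had an unadjusted p under 0.05 (3.71% of all genes). In the goblet lineage 0 passed (0.0191% of all genes, 1 by DESeq2), with medians of -0.13 and 0.00, and 2 had an unadjusted p under 0.05 (8.42% of all genes). In the Paneth lineage 0 passed (0.663%, 1 by DESeq2), with medians of -0.34 and 0.00, and 11 had an unadjusted p under 0.05 (14.8% of all genes). There, of 114 further pathway genes 3 fell, among them Pdia2 (-2.82 ± 0.49) and Copz2 (-2.51 ± 0.43). In the endocrine lineage 0 of 47 passed (0%, 1 by DESeq2), with medians of 0.04 and 0.01, and 4 had an unadjusted p under 0.05 (8.67% of all genes). Kdelr3 was too low to test. With APC-KO replicate 1 left out, 2 genes passed over all cells, 7 in Paneth and 4 in endocrine cells. With replicate 2 of that genotype left out, 1 passed in Paneth and 1 in endocrine cells. Each such fit has a single APC-KO library, which is assumed to vary like the WT libraries, from which alone the spread comes. No share of all genes is given for these fits, so their counts do not show whether the set stood out.

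In the progenitor lineage Sdf2l1 and Txndc5 fell in APC-KO, against 0.92% of all genes called. Sdf2l1 (GRCm38 chromosome 16, 17130138 to 17132383) stood at 160 and 192 in WT and 53.6 and 60.8 in APC-KO (-1.56 ± 0.25, adjusted p = 0.0097). Txndc5 (chromosome 13, 38500079 to 38528824) stood at 515 and 735 in WT and 197 and 232 in APC-KO (-1.51 ± 0.28, adjusted p = 0.023). Both APC-KO libraries lay below both WT libraries for each gene. The values of APC-KO replicate 1 come from 9 UMIs of Sdf2l1 and 33 of Txndc5. The median of the 48 genes was -0.49 against 0.01, and 24 had an unadjusted p under 0.05 (12.4% of all genes). Hspa5 stood at 1382 and 1570 against 841 and 1020 (-0.66 ± 0.25, adjusted p = 0.30) and Kdelr3 at 18.8 and 19.4 against 0 and 8.49 (-1.21 ± 0.29, adjusted p = 0.082).

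The makeup of the progenitor lineage also differed between genotypes. SEC-PRO cells were 44.0% and 56.9% of it in WT and 17.2% and 33.5% in APC-KO, where APC-KO replicate 1 had 29 progenitor cells. Within ISC, ENTERO-PRO and SEC-PRO alike, the unscaled share of the 48 genes was lower in both APC-KO libraries. The 5 enterocyte markers summed to 601 and 675 CPM in progenitors of WT mice, against 4628 and 1184 in those of APC-KO mice. With SEC-PRO cells left out, the median of the 48 genes was -0.20 and 0 passed, with Sdf2l1 at -1.13 (adjusted p = 0.094) and Txndc5 at -0.92 (adjusted p = 0.21). What part the makeup had in the genotype difference was not tested. Over all progenitor cells, 9 genes passed once APC-KO replicate 1 was left out, and 1 when replicate 2 of that genotype was. Dropping the first WT library left 1, and dropping the second left 0. In each case the lone library is assumed to vary like the pair of the other genotype. Here too no share of all genes is given, so these counts do not show whether the set stood out. Of 116 further genes 3 fell, among them Agr2 (-1.74 ± 0.27) and Qsox1, a sulfhydryl oxidase (-1.40 ± 0.27).

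Genes whose libraries do not overlap were counted as a description. On the TMM scale, both APC-KO libraries lay below both WT libraries for 35 of 48 genes in progenitors (23.9% of all genes), 27 in Paneth (21.7%), 21 in goblet (19.6%), 13 of 47 in endocrine (19.8%) and 8 over all cells (16.7%). They lay above for 2 in progenitors (17.2% of all genes), 4 in Paneth (20.6%), 5 in goblet (19.5%), 10 in endocrine (19%) and 3 over all cells (14.4%). In Paneth cells the direction depends on the scale: the unscaled share of UMIs was 1.20% and 1.07% in WT and 1.23% and 1.55% in APC-KO, both APC-KO libraries being higher, and defensins and Lyz1 took 42.8% and 43.6% of UMIs in WT against 33.5% and 16.7% in APC-KO.

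Within PANETH the unscaled share of the 48 genes was 0.707% and 0.782% in WT against 0.777% and 1.19% in APC-KO. Within PANETH-PRE it was 2.38% and 2.43% against 2.01% and 1.79%, and within SEC-PRO 2.19% and 2.37% against 1.88% and 1.63%. PANETH overlapped between genotypes, while PANETH-PRE and SEC-PRO were lower in both APC-KO libraries. So were ISC (0.99% and 0.91% against 0.82% and 0.74%) and ENTERO-PRO (1.33% and 1.34% against 1.07% and 1.19%). GP (2.77% and 2.89% against 2.33% and 2.38%), GOBLET-PRE (2.55% and 2.81% against 2.41% and 2.10%) and EC (1.01% and 1.03% against 0.91% and 0.98%) were lower as well. EEC-PRE, NON-EC and TUFT overlapped. APC-KO replicate 1 had 16 PANETH, 11 PANETH-PRE, 5 SEC-PRO, 13 ISC, 11 ENTERO-PRO and 7 GP cells. In GOBLET cells the shares overlapped, at 1.15% and 1.11% against 1.18% and 0.98%.

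Sec61g, a small subunit of the Sec61 channel, had the highest log2 difference of the set in each lineage, without passing. It stood at 655 and 387 in WT and 1009 and 1064 in APC-KO goblet cells (0.99 ± 0.27, adjusted p = 0.53). In Paneth cells it stood at 380 and 226 against 581 and 566 (0.92 ± 0.32, adjusted p = 0.20), and in endocrine cells at 343 and 206 against 468 and 651 (1.04 ± 0.27, adjusted p = 0.35). Both APC-KO libraries lay above both WT libraries in these lineages, with the WT libraries far apart, and in edgeR the gene passed in none of them. Sec61g was chosen for mention after its values had been seen.

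**Figure D5:**
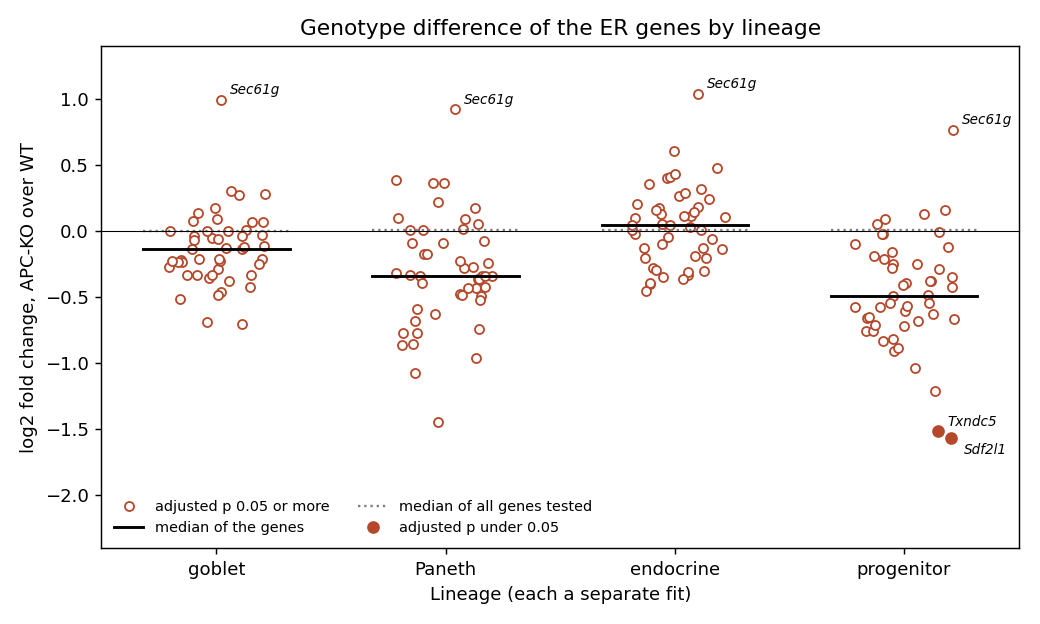
log2 fold change of APC-KO over WT for each gene (points, horizontally jittered) in 4 lineages, with the median of the 48 genes (47 in endocrine) as a solid line and that of all genes tested as a dotted line. Sdf2l1 and Txndc5 in progenitors are filled because they passed; Sec61g lies highest in every lineage shown.

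Whether the genotype difference differed between lineages was tested directly. Between Paneth and goblet cells, 5 of 48 genes had a lower difference in Paneth cells and 0 a higher one, against 1.4% of all genes called in either direction; the medians were -0.13 and 0.01. Ddit3 stood at 67.1 and 75.2 in WT and 35.4 and 35.7 in APC-KO Paneth cells, but at 55.2 and 65.1 and at 50.8 and 62.3 in goblet cells (difference of log2 differences -1.01 ± 0.22, adjusted p = 0.0074). Edem1 stood at 209 and 221 against 130 and 110 in Paneth cells and at 129 and 135 against 127 and 110 in goblet cells (-0.74 ± 0.19, adjusted p = 0.029). Tram1, which assists translocation, stood at 433 and 479 against 253 and 236 in Paneth cells and at 356 and 366 against 330 and 282 in goblet cells (-0.63 ± 0.15, adjusted p = 0.016). In Paneth cells the genotypes do not overlap for any of the 3 genes.

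Dnajb9 (-0.76 ± 0.20) and Srp14 (-0.66 ± 0.17) completed the 5. Several of these counts are small: in the 27 Paneth cells of APC-KO replicate 1, Ddit3 and Dnajb9 had 6 UMIs each, and Edem1 22. Dropping either WT library left 0 of the 48, dropping APC-KO replicate 1 gave 8, and dropping the other library of that genotype left 1. In the Paneth lineage PANETH-PRE cells were 53.5% and 32.9% of cells in WT and 40.7% and 68.7% in APC-KO, and the summed CPM of the 6 Paneth markers was 320632 and 338481 in WT against 237392 and 136350 in APC-KO. With PANETH-PRE and GOBLET-PRE cells alone, 0 passed and the median was -0.39. Among 121 further genes 9 were lower and 0 higher, led by Nupr1 (-2.10 ± 0.34) and Ppp1r15a, the GADD34 phosphatase subunit (-1.57 ± 0.26). Between goblet and endocrine cells 0 of 48 passed (0.166% of all genes, 0 by DESeq2), 8 had an unadjusted p under 0.05 (6.12% of all genes), and 2 passed without APC-KO replicate 1.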

How the data were processed

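Per the submitters' processing notes, reads were processed with Cell Ranger 3.0.2 and STAR on mm10. The deposited matrices hold UMI counts per gene and barcode. The authors' metadata tables name the cell type of each kept cell and give its percentage of mitochondrial UMIs and its gene and UMI counts; kept cells had 901 to 2999 genes. UMIs were summed per library and cell type or lineage. The 48 genes, the lists of further pathway genes and markers, and the lineages were chosen with earlier results of these data known. Named with values are a list of members that represent each role, up to 3 members per direction by size of difference among those past the threshold of a comparison, and up to 2 further pathway genes per direction. Other members, such as Canx, Calr, P4hb and Sec61g, were named after their values were seen.

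Sums were tested with edgeR 4.0.16 (quasi-likelihood test, TMM factors, filterByExpr, limma 3.58.1, R 4.3.3) over all genes, with Benjamini-Hochberg adjustment at 0.05. Lineage and type comparisons carried the library as a block, since the lineages of a library come from the same preparation. DESeq2 1.42.0 was an alternative. Scripts were tested on simulated counts in which 200 genes were changed by a log2 of 1.5. Of the calls, 14.4% were on unchanged genes for WT goblet against progenitor and 7.07% for GOBLET against GOBLET-PRE. The other comparisons simulated gave 0% to 3.85%. Of the changed genes, 71.5% to 98% were called. Doublets were not called again. Intervals cover counting error only.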

Additional observations from a re-analysis of the deposited data

Results flagged for a closer look

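For 5 genes the difference between APC-KO and WT was itself different between the Paneth and goblet lineages by the interaction test of edgeR. The difference of log2 differences, Paneth minus goblet, was -1.01 for Ddit3, -0.76 for Dnajb9, -0.74 for Edem1, -0.66 for Srp14 and -0.63 for Tram1. In the goblet lineage the genotype difference was -0.04 for Ddit3, 0.14 for Dnajb9, -0.14 for Edem1, 0.00 for Srp14 and -0.21 for Tram1. In the Paneth lineage it was -0.96, -0.68, -0.86, -0.74 and -0.87 in the same order, and none of these passed on its own.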

How the results depend on the processing

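Counts are of the 48 genes called. Shares of all genes called were given above for the main comparisons only. A count under an alternative therefore shows how calls moved, not whether the set stood out. The count of WT goblet against progenitor stayed between 45 and 48, goblet against endocrine between 46 and 48, GOBLET against GOBLET-PRE between 29 and 39 and SEC-PRO against ISC between 41 and 48 over the alternatives run. Between genotypes, leaving out 1 library gave 0 to 2 over all cells, 0 to 7 in Paneth, 0 to 4 in endocrine and 0 to 9 in progenitor cells. The DESeq2 Wald test gave 1 in each of goblet, Paneth and endocrine cells. Without a filter on low counts the calls were 3 in goblet, 5 in Paneth, 1 in endocrine and 7 in progenitor cells. Paneth cells gave 1 with cells thinned to 2000 UMIs, 1 with free RNA subtracted and 1 with precursors alone, and progenitors 0 with SEC-PRO left out. Leaving out 1 library gave 24 to 47 for Paneth and 26 to 45 for endocrine against progenitor, 2 to 31 for Paneth against goblet, 0 to 8 and 0 to 2 for the interactions of Paneth and of endocrine with goblet cells, 4 to 24 for PANETH against PANETH-PRE, 11 to 21 for EC against EEC-PRE and 24 to 46 for GP against SEC-PRO. Paneth against goblet gave 10 thinned, 9 with no library block and 8 with precursors alone. The interaction with Paneth cells gave 3 by the DESeq2 Wald test and 0 thinned, with no library block or with precursors alone. PANETH against PANETH-PRE gave 11 thinned and 7 with no library block, and GP against SEC-PRO 22 with no library block. Endocrine against progenitor gave 26 with ISC alone and 29 with SEC-PRO left out. The cause was not tested.

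Some genes changed sign with the progenitor reference. Against ISC alone, the log2 difference in endocrine cells was 0.084 for Hsp90b1, 0.31 for Pdia5, 0.47 for Hyou1, 0.61 for Xbp1, 0.031 for Ern2, 0.43 for Atf4, 0.26 for Herpud1, 0.46 for Sec61b, 1.05 for Txndc5 and 0.30 for Kdelr2, and in tuft cells 0.81 for Dnajb9, 0.16 for Xbp1, 0.72 for Ern2, 0.59 for Herpud1 and 0.65 for Kdelr3. With SEC-PRO left out it was 0.24 for Pdia5, 0.41 for Hyou1, 0.37 for Xbp1, 0.34 for Atf4, 0.26 for Herpud1, 0.24 for Sec61b, 0.92 for Txndc5 and 0.11 for Kdelr2 in endocrine cells, and 0.68 for Dnajb9, 0.61 for Ern2, 0.63 for Herpud1 and 0.12 for Kdelr3 in tuft cells. In precursors alone, Pdia5 in Paneth against goblet was 0.23.

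DESeq2 size factors moved the median of all genes by 0.12 for endocrine and 0.11 for tuft against progenitor, -0.13 for goblet against endocrine and -0.11 for GP against SEC-PRO. Whether libraries of the same replicate number were paired is not known here. Same-numbered libraries correlated at -0.23 in their deviations from the group means. With 2 libraries per genotype the deviations mirror each other, so both pairs give this 1 value, which cannot settle the question. With the replicate block the genotype comparisons called 0 genes of the set over all cells, 0 in goblet, 0 in Paneth, 0 in endocrine and 2 in progenitor cells, as without it. With the numbers crossed, 0, 0, 0, 1 and 2 were called in the same order. ISC cells alone could not be compared between genotypes, with 13 cells in APC-KO replicate 1. That library's 27 Paneth and 29 progenitor cells limit every genotype value of these lineages. Alternatives that leave out SEC-PRO, use precursors alone or cross the numbers were chosen after seeing the data.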
